A study of Pomacea canaliculata with 12 samples.

Results

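A group of 48 genes, out of 21131 counted in the head tissues of the apple snail Pomacea canaliculata, was abundant in the retina and several times lower, but not absent, in the eye stalk and in both kinds of tentacle. A gene belonged to the group by its normalised level, in counts per 1000000 of the scaled library total (CPM). The scaled total is the library's count total times its scaling factor, so CPM is not a plain share of the counts. The level had to be at least 200 CPM in each retina library. The retina mean had to be at least 3 times, but less than 8 times, the mean of each of the other tissues. The genes were selected on these levels, so the difference between retina and the other tissues is described here without a test. The 12 poly(A) RNA libraries cover the cephalic tentacle, the oral tentacle, the eye stalk and the retina taken out of the eye, 3 of each, and retina carries the replicate numbers 1, 3 and 4. Appendages were amputated, and no treatment, age or strain is given in the labels. Whether the eye stalk samples still carried the eye, and whether libraries pooled animals, is not stated either.

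The apple snail has a camera-type eye, in which a lens focuses light on a retina lined with photoreceptor cells. The eye sits on a short stalk at the base of the cephalic tentacle. The tentacles, by contrast, are known as chemosensory and mechanosensory organs. A retina library holds RNA from photoreceptors together with pigmented, supporting and nerve cells. A gene moderately enriched there may be used widely and more heavily in retina, or may be used by a cell type that is merely more frequent in it. In bulk tissue, fewer cells of a type and less RNA per cell cannot be told apart. The genes carry LOC identifiers only, and all 48 were found in the reference gene table with no symbol other than the identifier, so no function is attached to any of them and the tissue labels could not be checked against marker genes.

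Retina libraries held 40794864 to 45673871 counts and the other 9 libraries 10804847 to 21561988, so depth and tissue went together for the retina. The scaling factors from the trimmed mean of M-values (TMM) were 0.76 to 0.80 in retina and 1.03 to 1.13 elsewhere. In retina replicate 4 the most abundant transcript was LOC112562530, which is not one of the 48 genes and reached 122600 CPM there, against 4308 and 6397 CPM in replicates 1 and 3.

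The 48 genes came from 880 genes with at least 200 CPM in each retina library. Of these 880, 129 had a retina mean at least 3 times that of every other tissue, and 11 of the 129 were at least 8 times higher than in every one. The remaining 70 were past 8-fold against some tissues only. Within those 70, 60 were past 8-fold against both tentacles but not against eye stalk, and 0 were past it against eye stalk but not against either tentacle. The upper limit of the window therefore left out mostly genes that were relatively higher in the eye stalk than in tentacle tissue.

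**Figure D1:**
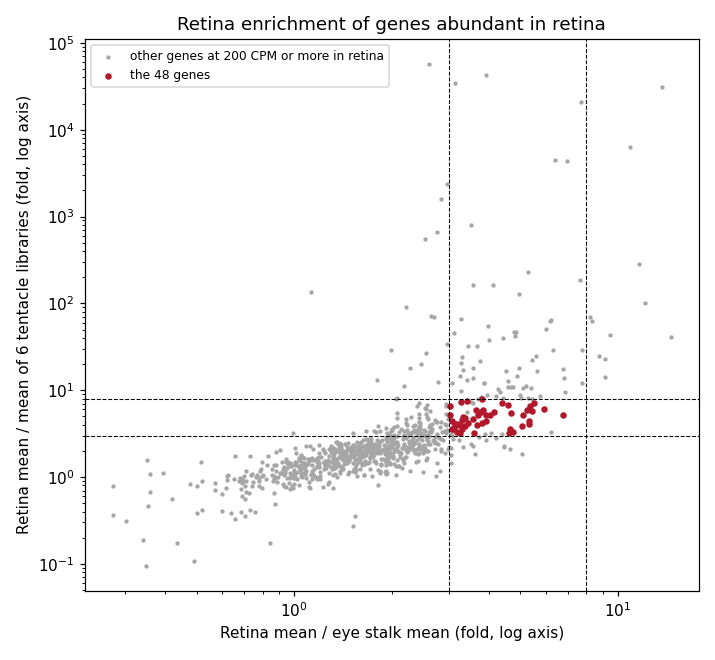
Retina mean over eye stalk mean (x axis, fold, log scale) against retina mean over the mean of the 6 tentacle libraries (y axis, fold, log scale) for the 880 genes with at least 200 CPM in each retina library; dashed lines mark 3-fold and 8-fold, and the 48 genes are red. Grey points inside the square are genes that fell outside the limits against cephalic or oral tentacle taken singly.

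The limits cut through a continuous range of values. The lowest retina library held 202 CPM of LOC112571665 and 206 CPM of LOC112554126, the members nearest that limit, against 199 CPM of both LOC112572370 and LOC112576777 just outside it. The smallest of the 3 retina ratios was 3.01 for LOC112562265 and 3.03 for LOC112566798, against 2.99 for LOC112565509 and 2.98 for LOC112558737 outside. At the upper limit, the largest ratio was 7.91 for LOC112576694 and 7.84 for LOC112575206, against 8.19 for LOC112575597 and 8.28 for LOC112559029 outside. The list is thus sensitive to the processing. Without TMM factors, on library totals alone, the rule gave 20 genes, of which 8 were among the 48. Without retina replicate 4 it gave 90 genes, of which 40 were among the 48. Leaving out each library in turn kept 21 of the 48 genes every time.

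Members spanned a wide range of abundance. The retina mean ran from 236 to 7058 CPM with a median of 535 CPM. There were 14 genes at 1000 CPM or more, 12 from 500 to under 1000 CPM and 22 under 500 CPM. By retina mean the highest member ranked 10 and the lowest 927 among all 21131 genes. Their summed share of a library's counts was 3.98 ± 0.37% for retina (SD, n = 3), 1.32 ± 0.21% for eye stalk, 1.19 ± 0.08% for cephalic and 1.23 ± 0.10% for oral tentacle.

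The retina mean was 3.03 to 6.78 times the eye stalk mean, with a median of 3.74. It was 3.19 to 7.91 times the cephalic tentacle mean (median 4.81) and 3.01 to 7.84 times the oral tentacle mean (median 4.72). The eye stalk level was thus 14.8% to 33.0% of the retina level, with a median of 26.7%, and the tentacle level 12.7% to 30.8%, with a median of 21.1%. The rule confines these ratios of means to its window, but it sets no lower limit on the separation of single libraries. The lowest retina library was 4.23 times the highest library of any other tissue for LOC112570448 but 1.37 times for LOC112568262.

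**Figure D2:**
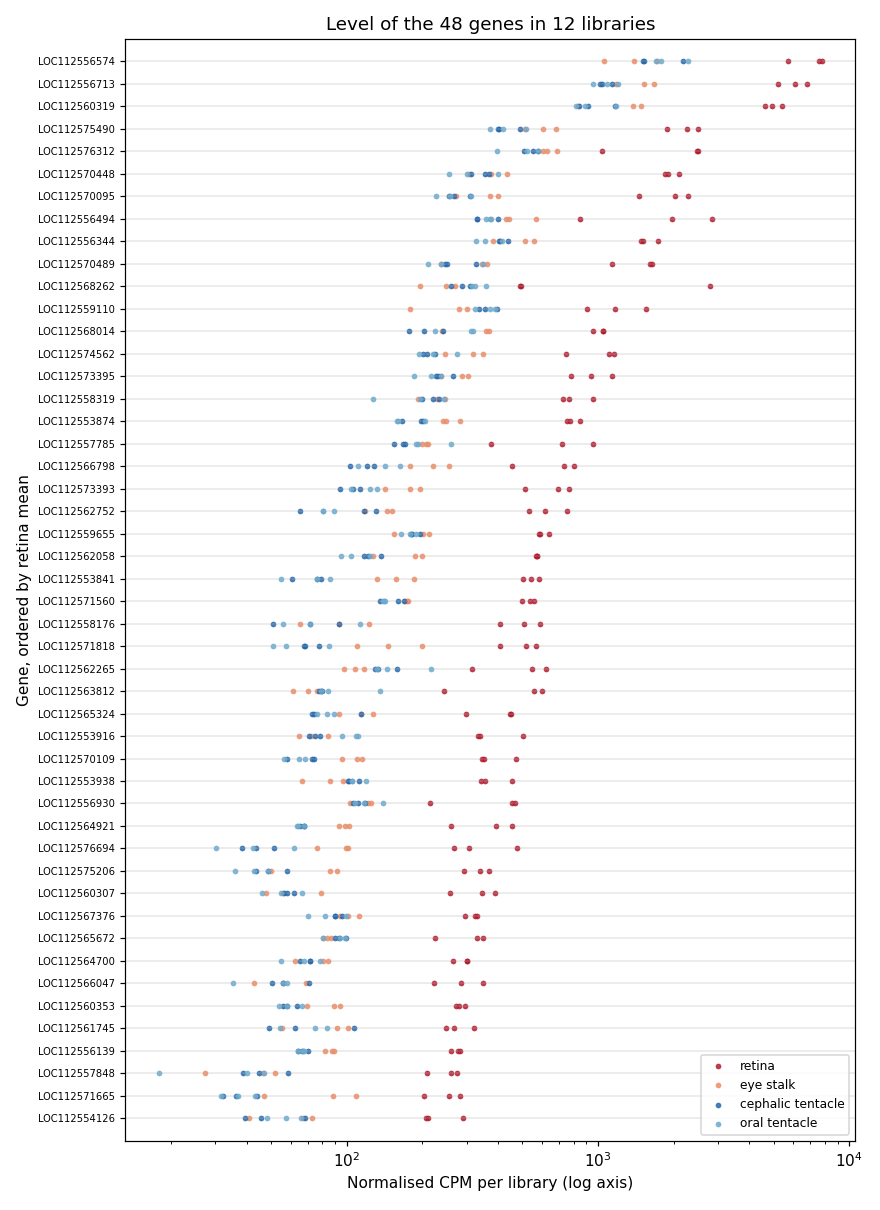
Normalised CPM (x axis, log scale) of each of the 48 genes (rows, ordered by retina mean) in all 12 libraries, 1 point per library coloured by tissue. Retina points lie to the right in every row, while eye stalk points lie to the right of the tentacle points in some rows, such as LOC112553841, and to the left in others, such as LOC112559110.

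The 5 genes with the highest retina means did not share one order of the other tissues. LOC112556574 led with 7820, 7620 and 5732 CPM in the retina libraries numbered 1, 3 and 4. Eye stalk replicates 1, 2 and 3 held 1395, 1719 and 1061 CPM, the cephalic libraries 1511, 1519 and 2187 CPM and the oral libraries 1710, 2287 and 1782 CPM. Eye stalk replicate 2 lay within the tentacle range for this gene and the other eye stalk libraries below it.

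LOC112556713 had 5232, 6084 and 6777 CPM in retina. Its eye stalk libraries held 1529, 1664 and 1184 CPM, the cephalic ones 1019, 1037 and 1137 CPM and the oral ones 1091, 957 and 1199 CPM. Here the eye stalk was the next tissue after the retina, although its replicate 3 fell inside the tentacle range.

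For LOC112560319 the retina libraries gave 4931, 5385 and 4637 CPM, and those of the eye stalk 1380, 1489 and 831 CPM. Its tentacle libraries ran from 818 to 1177 CPM, so eye stalk replicate 3 again lay within them while replicates 1 and 2 lay above. The retina libraries held 2505, 2272 and 1877 CPM of LOC112575490, those of the eye stalk 606, 679 and 513 CPM and the 6 tentacle libraries 373 to 517 CPM, where only eye stalk replicate 3 overlapped the tentacles.

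LOC112576312 was uneven in the retina. Replicates 1, 3 and 4 gave 2505, 2478 and 1037 CPM, a coefficient of variation (CV) of 41.8%. In eye stalk it had 685, 628 and 607 CPM, all above its 6 tentacle libraries at 397 to 577 CPM.

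Across the group, variation between retina libraries was near that of other abundant genes. The CV over the 3 retina libraries had a median of 17.9% in the 48 genes and 15.4% in the 880 abundant genes, and it was under 25% for 37 of the 48. LOC112562058 was the most even, with 564, 571 and 573 CPM in retina. It was followed by LOC112556139 with 261, 277 and 283 CPM and LOC112560353 with 273, 297 and 280 CPM. For these genes the retina libraries differed by little beside the distance to the next tissue, where the highest library held 200, 88.8 and 94.0 CPM respectively.

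At the other end, LOC112568262 owed its place to 1 library. Retina replicates 1 and 3 held 494 and 491 CPM but replicate 4 held 2801 CPM, a CV of 106%. Without replicate 4 it no longer met the rule, because its other retina libraries were less than 3 times its level elsewhere. For LOC112556494 replicates 1, 3 and 4 gave 2841, 1970 and 845 CPM, and for LOC112557785 they gave 953, 717 and 374 CPM, both lowest in replicate 4.

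Retina replicate 4 was the lowest retina library for 27 of the 48 genes (56.2%). The same was true of 61.5% of the 880 abundant genes and 36.6% of all 16811 genes tested. The ratio of the highest to the lowest retina library was under 1.5 for 29 genes and at least 2 for 6, and 4 of those 6 were lowest in replicate 4. The part of LOC112562530, which took many counts in that library, in this pattern was not tested.

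**Figure D3:**
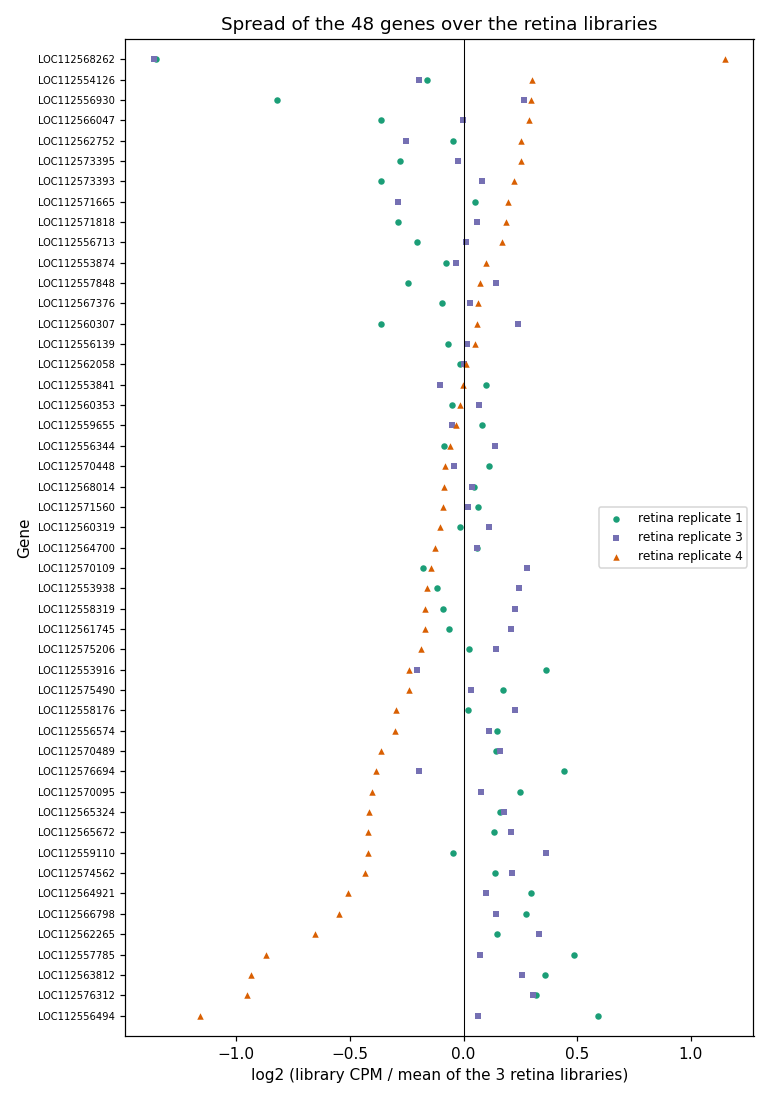
Log2 of each retina library's CPM over the mean of the 3 retina libraries (x axis) for the 48 genes (rows, ordered by the level of replicate 4 relative to replicates 1 and 3), 1 point per library. Replicate 4 ranges from 1.16 below the mean for LOC112556494 to 1.15 above it for LOC112568262.

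A comparison that the rule did not use is that of the eye stalk with the tentacles, although the fold window limits any difference between these tissue means to less than 2.67-fold. Of the 48 genes, 14 passed the test as higher in eye stalk than tentacle and 0 as lower (edgeR quasi-likelihood test, adjusted p under 0.05, 12 libraries). Among all 16811 genes tested, 13.4% were called higher in eye stalk and 13.1% lower. The share of 29.2% in the group stood above that of all genes, but among the 880 genes abundant in retina 34.2% were called higher in eye stalk and 7.61% lower. The median log2 fold change was 0.30 in the 48 genes, 0.29 in the 880 and 0.02 in all genes tested. The higher share thus lay near that of retina-abundant genes in general. Since the eye stalk samples may have carried the eye, retinal RNA in them and RNA of the stalk itself cannot be told apart. With DESeq2, 16 of the 48 genes were called higher, against 14.2% of all genes, and 1 was called lower, against 16% of all genes. At an unadjusted p under 0.05 in edgeR, 19 of the 48 were higher, against 19.3% of all genes, and 3 were lower, against 18.6% of all genes.

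The largest differences among the called genes were those in which the eye stalk held about 2 times the tentacle level. LOC112553841 had 158, 185 and 131 CPM in eye stalk replicates 1, 2 and 3, with 76.1, 60.5 and 78.6 CPM in the cephalic and 54.8, 76.3 and 85.6 CPM in the oral libraries. All 3 eye stalk libraries lay above all 6 tentacle libraries. The log2 fold change reached 1.14 ± 0.16 (SE; adjusted p = 0.00075 by edgeR), and its retina libraries held 580, 503 and 541 CPM.

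LOC112571818 had 146, 200 and 109 CPM in eye stalk and 50.7 to 85.2 CPM in the tentacles, again without overlap (log2 fold change 1.17 ± 0.21, SE, edgeR adjusted p = 0.0027). LOC112571665 had 88.3, 109 and 46.6 CPM in eye stalk and 31.5 to 43.9 CPM in the tentacles, so that eye stalk replicate 3 was only just above them (1.14 ± 0.24, edgeR adjusted p = 0.0058). LOC112576694 had 99.0, 101 and 75.9 CPM in eye stalk and 30.1 to 61.3 CPM in the tentacles (1.06 ± 0.23, edgeR adjusted p = 0.0068). For these 3 genes the eye stalk mean was 30.4%, 32.9% and 26.3% of the retina mean. The rule holds it below the retina mean in every member, so only the comparison with the tentacles was tested.

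LOC112570109 completed the 5 lowest adjusted p-values, with 115, 110 and 95.4 CPM in eye stalk and 56.3 to 74.1 CPM in the tentacles (log2 fold change 0.71 ± 0.14, SE, edgeR adjusted p = 0.0039). Its retina libraries held 344, 472 and 353 CPM, and its eye stalk and tentacle libraries did not overlap. Retina and eye stalk libraries did not overlap in any of the 48 genes, which were selected on these levels. The calls of all 5 genes held in each of 18 alternatives, which kept the list of 48 genes fixed. With each library left out in turn, the rule itself kept LOC112570109 in 12 of 12 cases and LOC112553841 in 11. It kept LOC112571818 in 9, LOC112576694 in 7 and LOC112571665 in 6.

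A smaller but even difference was seen for LOC112556139, a gene that also varied little within tissues. It had 81.7, 87.5 and 88.8 CPM in eye stalk, with 66.5, 64.1 and 70.3 CPM in the cephalic and 64.1, 67.6 and 66.6 CPM in the oral libraries (log2 fold change 0.37 ± 0.09, SE, edgeR adjusted p = 0.0093). LOC112564921 had 92.9, 98.1 and 102 CPM in eye stalk and 63.1 to 67.6 CPM in the tentacles (0.57 ± 0.14, edgeR adjusted p = 0.013). Neither gene overlapped between eye stalk and tentacles, and both calls held in all 18 alternatives.

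The other 7 called genes lost the call when some single libraries were left out. LOC112553874, with a log2 fold change at 0.51 ± 0.12 (SE, edgeR adjusted p = 0.011), was lost without eye stalk replicate 2 (0.061 in edgeR). LOC112566798, at 0.78 ± 0.19 (edgeR adjusted p = 0.013), was lost without eye stalk replicate 1 (0.068). LOC112560353 (0.51 ± 0.12), LOC112562058 (0.57 ± 0.15), LOC112573393 (0.63 ± 0.16) and LOC112575206 (0.72 ± 0.19) were lost without either of these eye stalk libraries. Their edgeR adjusted p-values were 0.011, 0.018, 0.015 and 0.017 with all libraries, 0.0503, 0.081, 0.059 and 0.082 without eye stalk replicate 1, and 0.061, 0.10, 0.082 and 0.099 without replicate 2.

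The most abundant of the called genes was also the least secure. LOC112575490, at 0.47 ± 0.15 (SE, edgeR adjusted p = 0.040), was called in 9 of 18 alternatives. It was lost without retina replicate 3 (0.055), eye stalk replicate 1 or 2 (0.11 and 0.19), oral tentacle replicate 1 or 2 (0.078 and 0.075) or cephalic tentacle replicate 1 or 2 (0.082 and 0.088), all by edgeR. A replicate block (0.058) and library totals without a scaling factor (0.084) also ended its call. The log2 fold change was 0.47 with the block and without retina replicate 3, and at its lowest 0.35, without eye stalk replicate 2. It was the only called gene with a retina mean of 1000 CPM or more, the other 13 being below that level. Among the most abundant genes, LOC112556713 had a log2 fold change of 0.45 ± 0.15 and LOC112560319 one of 0.36 ± 0.21, with edgeR adjusted p-values of 0.053 and 0.23. Without eye stalk replicate 3 both passed the test, at 0.021 and 0.037. LOC112556713 also passed it with all libraries under DESeq2 (0.013), RLE scaling (0.049) or a fit of the compared tissues only (0.047), and without retina replicate 1 or 4 (0.045 and 0.033). LOC112556494, uneven in retina, had a log2 fold change of 0.42 and was not called (edgeR adjusted p = 0.31). It passed the test in the fit of the compared tissues only (0.39, edgeR adjusted p = 0.043).

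**Figure D4:**
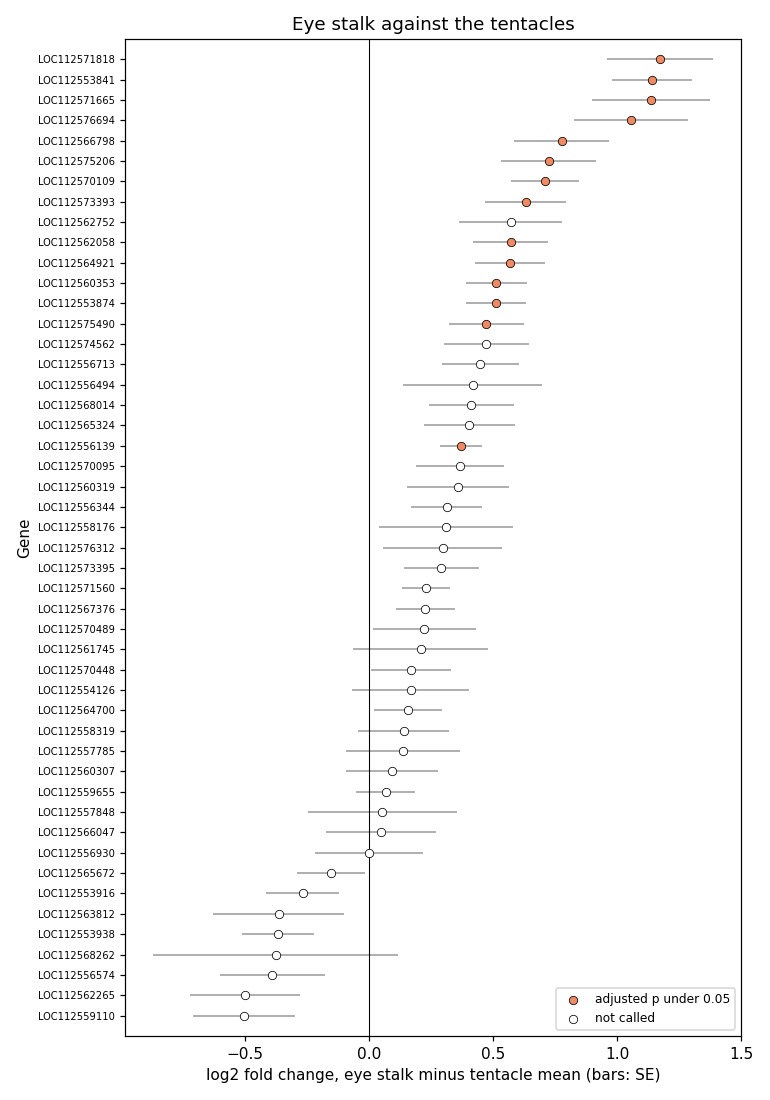
Log2 fold change of eye stalk over the mean of the cephalic and oral tentacles (x axis) for the 48 genes (rows, ordered by value), with bars for the SE and filled points for an edgeR adjusted p under 0.05. The 14 filled points all lie above 0, between 0.37 and 1.17, and the 9 points below 0 reach -0.51 and are all open.

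Single eye stalk libraries carried different amounts of this difference. Eye stalk replicates 1, 2 and 3 were above the tentacle mean for 40, 38 and 26 of the 48 genes. These counts were not made for all genes or for the 880 abundant genes. The median log2 fold change of eye stalk over tentacles was 0.29 in the 880 and 0.30 in the 48. The 48 genes together took 1.39%, 1.47% and 1.08% of the counts of eye stalk replicates 1, 2 and 3, against 1.14% to 1.35% in the 6 tentacle libraries. Replicate 3 was the lowest eye stalk library for 41 of the 48 genes (85.4%), against 62.7% of the 880 abundant genes and 37.9% of all genes tested. The number of members called higher was 8 without eye stalk replicate 1, 8 without replicate 2 and 19 without replicate 3. Of all genes tested, 8.74%, 9.42% and 11.7% were called higher in these fits, against 13.4% with all libraries. By a simple count of libraries, 14 of the 48 genes had all 3 eye stalk libraries above all 6 tentacle libraries, against 15.8% of all genes and 40.9% of the 880, and 11 of these 14 were among the called genes. In the other direction 4 had all eye stalk libraries below the tentacles, against 15.9% of all genes and 8.52% of the 880.

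A smaller number of genes had an eye stalk mean at or below the tentacles, and none of these passed the main edgeR test. The fitted log2 fold change was above 0 for 39 genes and below 0 for 9, against 51% and 49% of all genes. A similar lean was seen in the 880 genes abundant in retina, whose median was 0.29 against 0.30 in the 48. The most abundant gene, LOC112556574, was among the 9, at -0.39 ± 0.21 (SE, edgeR adjusted p = 0.21). LOC112559110 had 280, 302 and 179 CPM in eye stalk and 322 to 396 CPM in the tentacles, with all 3 eye stalk libraries below all 6 tentacle libraries (-0.51 ± 0.21, edgeR adjusted p = 0.096).

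LOC112562265 had 108, 117 and 97.3 CPM in eye stalk and 130 to 215 CPM in the tentacles (log2 fold change -0.50 ± 0.22, SE, edgeR adjusted p = 0.13). LOC112553938 had 85.6, 96.5 and 66.5 CPM in eye stalk and 101 to 119 CPM in the tentacles (-0.37 ± 0.15, edgeR adjusted p = 0.089), and was called lower without eye stalk replicate 2 (0.040), with DESeq2 (0.048) or on library totals (0.041 in edgeR). In both genes the eye stalk libraries lay below all 6 tentacle libraries. LOC112568262 had a log2 fold change of -0.38 ± 0.49 (edgeR adjusted p = 0.63), with overlapping eye stalk and tentacle libraries. Without retina replicate 4 it was called lower in eye stalk (-0.38, edgeR adjusted p = 0.043), with 196, 269 and 247 CPM in eye stalk and 260 to 360 CPM in the tentacles. The test took its spread from all 12 libraries, retina included. With only the compared tissues fitted, LOC112568262 was also called lower (-0.41, edgeR adjusted p = 0.040).

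Some of these genes followed the most abundant one over the libraries. The members whose log2 CPM over 12 libraries was most like that of LOC112556574 were LOC112559110, LOC112562265 and LOC112553938, with Pearson r of 0.98, 0.98 and 0.97, while LOC112568262 had the lowest r with it among the members, 0.69. The 12 libraries share tissue and depth, and the rule itself makes every member high in retina, so these r values only describe likeness. Outside the group, LOC112573941 had an r of 0.99 with the same gene.

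Cephalic and oral tentacle were compared in the same fit. None of the 48 genes passed the test between them: edgeR called 0 as higher in cephalic and 0 as higher in oral tentacle, against 0.155% and 0.19% of all genes, and DESeq2 also called 0 in each direction, against 1.09% and 0.99% of all genes. At an unadjusted p under 0.05 in edgeR, 0 were higher in cephalic tentacle and 2 higher in oral tentacle, against 3.65% and 5.47% of all genes. The fitted difference was above 0 for 23 of the 48 genes, against 48.4% of all genes, and below 0 for 25, against 51.6%. The median log2 fold change was -0.02 in the 48 genes and -0.01 in all genes tested. Under RLE scaling, DESeq2 or no low-count filter this majority turned, with 28 genes above 0 and medians of 0.02, 0.03 and 0.03, so no direction is given. With a replicate block, for the libraries whose numbers pair, the calls were again 0 in each direction.

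The genes nearest to a difference were higher in oral tentacle. LOC112553916 had 109, 110 and 95.3 CPM in oral tentacle and 70.8, 74.6 and 78.0 CPM in cephalic tentacle, without overlap. Its log2 fold change of cephalic over oral was -0.54 ± 0.17 (SE, edgeR adjusted p = 0.31, with 0.10 to 0.93 over 19 alternatives in edgeR or DESeq2). Its eye stalk libraries, at 64.4, 72.2 and 84.0 CPM, lay near the cephalic level. LOC112568014 had 319, 225 and 312 CPM in oral tentacle and 178, 203 and 242 CPM in cephalic tentacle, which overlapped (-0.50 ± 0.20, edgeR adjusted p = 0.47). In all, 3 genes had every oral library above every cephalic one, against 9.43% of all genes, and 0 had the reverse, against 11.7% of all genes. Besides LOC112553916 these were LOC112557785 and LOC112568262, with edgeR adjusted p-values of 0.72 and 0.98.

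Position in the genome linked few of the genes. In the gene order of assembly ASM307304v1, LOC112573395 and LOC112573393 were next to each other, and this was the only pair of members with fewer than 5 genes between them. Retina replicates 1, 3 and 4 held 783, 935 and 1134 CPM of LOC112573395 and 511, 695 and 767 CPM of LOC112573393. Both were thus lowest in retina replicate 1 and highest in replicate 4. In eye stalk they had 287, 304 and 238 CPM and 178, 196 and 142 CPM, with replicate 3 lowest for each. The log2 fold change of eye stalk over tentacles was 0.29 ± 0.15 for LOC112573395 (SE, edgeR adjusted p = 0.18), and the value for LOC112573393 is given above. Whether the 2 genes are copies that share reads could not be checked without their sequences. Of the 83 tested genes next to a member, 5 (6.02%) had at least 200 CPM in each retina library and 3 (3.61%) were at least 3 times higher in retina than in each other tissue. Over all genes tested these shares were 5.23% and 3.85%. The median log2 ratio of the retina mean to the average of the other tissues was 0.19 for these neighbours and -0.14 for all genes tested.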

How the data were processed

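The data were the authors' deposited raw counts, whole numbers for each gene in 12 libraries, a unit judged from the values themselves. Per the submitters' processing notes, STAR did the alignment. How reads were counted, on which strand, build and annotation, is not given in the sources used here. Each column carried the title of 1 sample, and titles gave tissue and replicate number. Labels do not say whether libraries come from separate animals, so p-values measure only the spread between libraries. All pairs of libraries within a tissue differed beyond sampling noise (chi-square per degree of freedom at least 34.02).

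CPM used TMM factors over all genes (edgeR 4.0.16, R 4.3.3), and ± beside a level or share is the SD. Tests were edgeR quasi-likelihood F-tests (robust) with tissue as the only term, on 16811 genes kept by filterByExpr (minimum count 10), with Benjamini-Hochberg adjustment over all of them. The spread was estimated from all 12 libraries, so unevenness among retina libraries also enters the SEs of the other comparisons. SEs were derived from the F statistic. DESeq2 1.42.0 was an alternative. Cephalic and oral libraries of the same number deviated together across genes (r = 0.39, 0.30 and 0.52 for numbers 1, 2 and 3). These numbers were taken as pairs only in the fits with a replicate block. Eye stalk and tentacle numbers did not deviate together (r from -0.38 to 0.03). The main fit had no block, so paired tentacle libraries counted as separate ones. This can make its p-values for eye stalk against tentacles too small.

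The members and the choices of test were made with earlier results of these data known. Named genes are the 5 highest in retina, the 5 lowest adjusted p per direction, the 3 lowest and 3 highest retina CVs, the genes nearest each limit, neighbours in the reference order, and the 3 most like the top gene. Other genes were named after their values were seen. Protein identity, roles and cell type markers were not analysed here, since the reference table pairs no product or sequence with an identifier. Because the build of the counts is unknown, no coordinates are given.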

Additional observations from a re-analysis of the deposited data

How the results depend on the processing

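The size of the gene group moved most. It was 20 with library totals and no scaling factor, 97 and 26 with a retina minimum of 100 or 400 CPM, 121 and 8 with fold windows of 2.5 to 10 or 4 to 7, 44 with RLE scaling and 53 with medians, and 39 to 90 when each library was left out. Members called as higher in eye stalk than tentacle numbered 8 to 19 when each library was left out. They numbered 13 to 16 under RLE scaling, no low-count filter, DESeq2, a replicate block, the compared tissues only or no scaling factor. The share of all genes tested that was called higher was 8.74% to 15.9% in the former fits and 10.8% to 15.1% in the latter. Members called lower numbered 1 with DESeq2, with the replicate block, with the compared tissues only and with no scaling factor. They numbered 0 to 1 when each library was left out. Of all 16466 to 18173 genes tested, 2266 to 2901 and 1475 to 2582 were called lower in these fits, respectively. With the block, 14 members were called higher and 13 of the original 14 kept their call. LOC112568262 was called lower with the block (edgeR adjusted p = 0.033). Eye stalk numbers were not shown to pair with tentacle numbers. The count between cephalic and oral tentacle was 0 in each direction under all 19 alternatives. Of 1776 values of single genes under an alternative, 19 lost a call, 23 gained one and 0 reversed direction with a call in either fit. Sign changes of genes called in neither fit were not counted as reversed. For example, the eye stalk over tentacle log2 fold change of LOC112554126 went from 0.17 to -0.02 without eye stalk replicate 2. The cause of these changes was not tested. Fits on library totals and the block within the tentacle libraries were chosen after seeing the data. The lowest tissue mean of a member was 34.8 CPM, in oral tentacle, where the shallowest library held 10804847 counts.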
